A study of Homo sapiens with 36 samples.

Results

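The transcripts of 10 plasma membrane amino acid transporter genes were followed in HMC3 cells exposed to perfluorooctane sulfonate (PFOS), a persistent fluorinated surfactant. The genes were SLC7A11, SLC3A2, SLC7A5, SLC7A1, SLC6A9, SLC1A4, SLC1A5, SLC38A1, SLC38A2 and SLC38A10. They were taken from the count table by symbol, as 10 of its 25344 gene rows, and all 10 passed the filter on low counts that left 9847 genes for testing. HMC3 is an established human microglial line from ATCC, grown in high-glucose DMEM with fetal bovine serum. RNA was sequenced from 6 groups of 3 libraries, which the labels call biological replicates. The groups were vehicle, 25 µM PFOS and 50 µM PFOS collected after 24 h of exposure, and vehicle, 25 µM PFOS and 50 µM PFOS collected after 24 h of exposure followed by 24 h in fresh medium without PFOS (recovery). The labels name neither the solvent of the vehicle nor separate cultures for the replicates, so a p-value here reflects library-to-library spread, which may be partly technical. The H3K27ac CUT&Tag libraries of the series were not analysed here.

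Amino acids cross the plasma membrane through families of solute carriers that differ in substrate and in what drives them. SLC3A2 (4F2hc, CD98) is a heavy chain that carries light chains to the cell surface. With the light chain SLC7A11 it forms the cystine/glutamate exchanger that supplies cysteine for glutathione, and with SLC7A5 (LAT1) it exchanges large neutral amino acids such as leucine. SLC7A1 takes up arginine and lysine without a heavy chain, SLC6A9 takes up glycine, and SLC1A4 and SLC1A5 exchange small neutral amino acids, glutamine among them for SLC1A5. SLC38A1 and SLC38A2 take up glutamine and other small neutral amino acids together with sodium, and SLC38A10 is a family member described in mouse as a transporter of glutamine, glutamate and aspartate. Several of these genes are textbook targets of ATF4, the transcription factor of the amino acid response, and in microglia the cystine/glutamate exchanger is known as a source of extracellular glutamate.

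The libraries held between 582233 and 4346627 counts, and the 10 genes had between 4 counts (SLC7A11 in 1 vehicle library) and 18140 counts (SLC38A2) per library. Levels are given in CPM, the count as a share of TMM-scaled library size. CPM does not correct for transcript length, so levels are compared between groups and not between genes. Of 15 microglial markers, 6 had no count in any of the 18 libraries (CX3CR1, SALL1, AIF1, TYROBP, C1QA and C1QB), and CD68 alone averaged above 1 CPM. After 24 h the summed level of these 15 markers was 22.1 to 23.1 CPM in vehicle, 19.4 to 34.5 CPM at 25 µM PFOS and 56.2 to 79.5 CPM at 50 µM, and after recovery it was 17.4 to 29.1, 23.5 to 31.3 and 52.8 to 65.1 CPM in the same order. CD68 itself averaged 19.6, 26.0 and 62.1 CPM in the 24 h groups and 20.5, 26.4 and 54.2 CPM after recovery, in the same order. The sum is thus mostly CD68 and does not describe the 15 markers as a set. The part of this sum in the results was not tested. Of 7 mesenchymal markers, FN1 averaged 11904 CPM and COL1A1 1227 CPM, while COL3A1 had no count. The epithelial marker KRT8 averaged 37.8 CPM, beside 34.8 CPM for CD68, while EPCAM and CDH1 averaged 0.807 and 1.76 CPM. The 3 libraries of 50 µM PFOS after recovery stood apart: ribosomal protein genes took 2.94%, 7.58% and 5.03% of their counts, against 1.21% to 2.43% in the other 15 libraries. Library 2 of that group lay farthest, so results that rest on it are given with and without it. In bulk RNA, fewer cells of a kind and less RNA per cell cannot be told apart.

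After 24 h, 4 of the 10 transporter transcripts rose at 50 µM PFOS and 0 fell (edgeR; 6 of the 10 had an unadjusted p under 0.05, and DESeq2 called 4). They were SLC7A11, SLC6A9, SLC38A1 and SLC3A2, which had 7.46, 6.97, 3.69 and 3.25 times the vehicle level. The same 4 were called at 25 µM PFOS, where the levels were 4.34, 4.49, 2.10 and 1.81 times vehicle. Both comparisons use the same vehicle libraries. Among all genes tested, 9.17% were called higher and 9.63% lower at 50 µM (18.8% in all), and 0.772% higher and 0.447% lower at 25 µM (1.22% in all). A call throughout means an edgeR Benjamini-Hochberg adjusted p under 0.05 over all genes tested. The median log2 change of the 10 genes was 0.68 at 50 µM and 0.82 at 25 µM, beside 0.01 and -0.00 over all genes tested. At 50 µM the 3 treated libraries lay above all 3 vehicle libraries for 7 of the 10 genes and below them for 1, where 20.3% and 21.1% of all genes did so (41.4% in all). At 25 µM they lay above for 8 and below for 0 of the 10, where 11.4% and 11.5% of all genes did so (22.9% in all). With any 1 library left out there were 4 to 5 calls at 50 µM and 4 at 25 µM. Fits of the compared groups alone called 7 at each dose, all higher. Those fits also called more of all genes higher, 1439 at 50 µM and 266 at 25 µM, against 903 and 76 with all libraries.

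**Figure D1:**
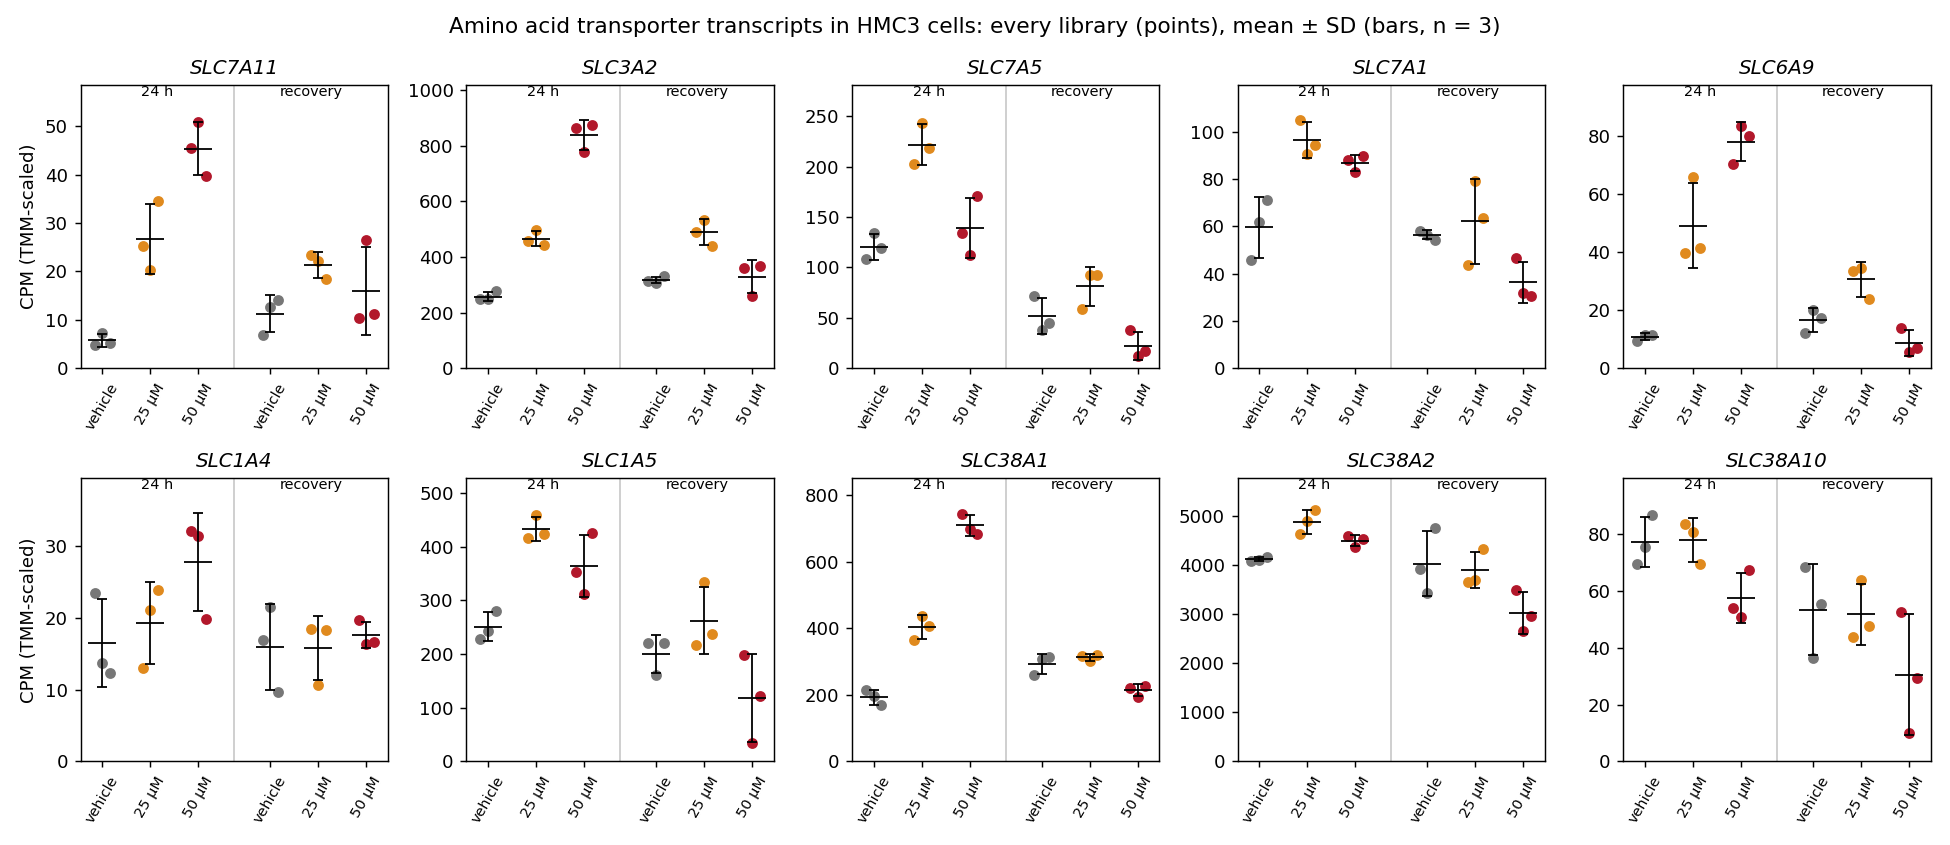
Levels of the 10 transporter transcripts in every library (points, CPM on a linear axis from 0) with group mean and SD (bars, n = 3), for vehicle, 25 µM and 50 µM PFOS after 24 h and after recovery. SLC3A2, SLC38A1, SLC6A9 and SLC7A11 step up with dose at 24 h, with SLC38A1 at 684 to 745 CPM at 50 µM; SLC7A5 is highest at 25 µM, with 203 to 244 CPM, and the points of 50 µM after recovery are widely spread for SLC1A5 and SLC38A10.

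Promoter windows of these genes were searched for 3 motifs, to show the sequence around their start sites. RefSeq (GRCh38.p14) windows of 250 bases before to 50 bases after a start were held for 9 of the 10 genes, with 15 windows in all. SLC7A11 had no window and was not searched. The motifs, on both strands, were TGATGNAA (the C/EBP-ATF response element that ATF4 dimers bind), TGACNNNGC (the antioxidant response element core) and TGACGTCA (the cAMP response element). TGATGNAA was found in 5 of the 9 genes, against 4.46% of 27305 genes with a window. TGACNNNGC was found in 4 of the 9, against 16.1% of genes, and TGACGTCA in 0 of the 9, against 2.25% of genes. A match describes letters only, and binding was not measured.

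The 5 windows with TGATGNAA are printed together with the single window of SLC6A9, which holds none of the 3 motifs although its transcript rose. Capitals mark matches to TGATGNAA and TGACNNNGC on either strand, none of which overlap each other, and each window is written 5′ to 3′ on the gene's strand. Positions are those of a match's first base, counted from the start site as 1, with bases before it negative. The SLC3A2 window at chr11:62881449-62881748 (plus strand) holds TTACATCA at 38 and TGACTCAGC at -37. The SLC38A1 window at chr12:46266467-46266766 (minus strand) holds TGATGAAA at -4. The SLC7A1 window at chr13:29595639-29595938 (minus strand) holds TGATGAAA at 8 and TGACGCGGC at -85. The SLC1A4 window at chr2:64989149-64989448 (plus strand) holds TTGCATCA at -7. The SLC1A5 window at chr19:46784765-46785064 (minus strand) holds TGATGCAA at -97. The SLC6A9 window lies at chr1:44031413-44031712 (minus strand).
SLC3A2: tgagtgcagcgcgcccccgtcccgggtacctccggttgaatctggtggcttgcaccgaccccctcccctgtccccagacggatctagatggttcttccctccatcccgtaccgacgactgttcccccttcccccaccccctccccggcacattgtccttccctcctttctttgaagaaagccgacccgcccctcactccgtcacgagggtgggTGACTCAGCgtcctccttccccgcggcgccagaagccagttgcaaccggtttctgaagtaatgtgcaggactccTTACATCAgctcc
SLC38A1: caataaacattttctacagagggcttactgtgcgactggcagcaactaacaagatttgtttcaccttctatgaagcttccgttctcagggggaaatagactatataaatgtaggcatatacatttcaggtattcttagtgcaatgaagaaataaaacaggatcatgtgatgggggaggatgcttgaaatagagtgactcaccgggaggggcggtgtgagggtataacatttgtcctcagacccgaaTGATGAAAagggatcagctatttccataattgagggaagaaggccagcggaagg
SLC7A1: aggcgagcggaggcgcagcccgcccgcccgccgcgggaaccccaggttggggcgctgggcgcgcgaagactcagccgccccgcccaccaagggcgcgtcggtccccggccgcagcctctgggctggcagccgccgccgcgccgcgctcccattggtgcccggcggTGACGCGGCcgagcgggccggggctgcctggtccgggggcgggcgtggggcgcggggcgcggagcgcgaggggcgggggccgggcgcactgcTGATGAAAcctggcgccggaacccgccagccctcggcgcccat
SLC1A4: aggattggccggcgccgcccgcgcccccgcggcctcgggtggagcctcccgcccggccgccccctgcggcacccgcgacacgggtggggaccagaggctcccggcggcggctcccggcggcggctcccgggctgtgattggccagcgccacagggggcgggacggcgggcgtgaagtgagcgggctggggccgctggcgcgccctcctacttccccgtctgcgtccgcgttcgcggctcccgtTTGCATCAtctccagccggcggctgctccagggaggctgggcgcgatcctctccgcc
SLC1A5: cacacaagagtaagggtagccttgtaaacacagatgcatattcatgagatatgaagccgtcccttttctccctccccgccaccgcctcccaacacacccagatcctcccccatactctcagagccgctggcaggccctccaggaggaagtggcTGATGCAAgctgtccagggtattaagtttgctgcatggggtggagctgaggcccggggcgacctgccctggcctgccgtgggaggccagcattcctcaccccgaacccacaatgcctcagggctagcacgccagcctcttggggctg
SLC6A9: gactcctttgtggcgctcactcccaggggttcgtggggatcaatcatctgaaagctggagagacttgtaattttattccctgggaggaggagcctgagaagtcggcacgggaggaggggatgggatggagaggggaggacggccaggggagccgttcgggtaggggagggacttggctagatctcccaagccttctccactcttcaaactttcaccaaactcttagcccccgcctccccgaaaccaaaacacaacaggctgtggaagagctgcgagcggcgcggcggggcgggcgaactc
Of the genes whose windows hold TGATGNAA, SLC3A2 and SLC38A1 rose at both doses, while SLC7A1, SLC1A4 and SLC1A5 were not called. SLC1A4, SLC1A5, SLC38A1 and SLC3A2 have further windows at other starts without this motif, and counts per gene do not tell which start was used.

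The heavy chain and its cystine light chain rose at both doses. SLC3A2 (chromosome 11: 62856109-62888860, GRCh38.p14) had 248, 248 and 277 CPM in the vehicle libraries, 458, 495 and 444 CPM at 25 µM PFOS and 865, 776 and 875 CPM at 50 µM. The 3 groups did not overlap and were ordered by dose. The log2 change was 1.70 ± 0.14 (SE) at 50 µM (edgeR adjusted p = 1.27e-08) and 0.85 ± 0.14 at 25 µM (adjusted p = 0.00118). SLC7A11, the cystine/glutamate exchanger subunit (chromosome 4: 138164097-138242349), had 4.70, 7.21 and 5.30 CPM in vehicle, 25.2, 20.2 and 34.6 CPM at 25 µM and 45.5, 50.8 and 39.8 CPM at 50 µM. Every exposed library lay above every vehicle library. The log2 change was 2.90 ± 0.32 at 50 µM (adjusted p = 1.21e-06) and 2.12 ± 0.33 at 25 µM (adjusted p = 0.000824). These levels rest on few counts, and with all libraries thinned to the size of the smallest the 25 µM change of SLC7A11 was no longer called (adjusted p = 0.276).

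The other light chain of SLC3A2 behaved differently by dose. SLC7A5, the large neutral amino acid exchanger (chromosome 16: 87830023-87869507), had 108, 134 and 120 CPM in vehicle, 203, 244 and 219 CPM at 25 µM and 135, 112 and 171 CPM at 50 µM. The 25 µM libraries lay above all vehicle and all 50 µM libraries, and the 50 µM and vehicle libraries overlapped. None of these differences was called: the log2 change was 0.87 ± 0.25 at 25 µM against vehicle (adjusted p = 0.117), 0.21 ± 0.25 at 50 µM against vehicle (adjusted p = 0.620) and -0.66 ± 0.25 at 50 against 25 µM (adjusted p = 0.115). In fits of the compared libraries alone, the 25 µM change and the difference between doses were called (adjusted p = 7.77e-06 and 0.000764). Pseudogene copies SLC7A5P1 and SLC7A5P2 had at most 9 counts in any library, while SLC7A5 had 12 to 904, and how reads were divided among these copies is uncertain.

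The number of SLC7A5 counts per SLC3A2 count was then compared by library, a ratio chosen after the levels were seen. Since transcript lengths differ between genes, its size has no direct meaning, and only changes between groups do. It was 0.165 ± 0.0265 at 50 µM PFOS and 0.470 ± 0.0620 in vehicle after 24 h (SD, n = 3 each), while the 25 µM libraries had 0.476 ± 0.0284. All 50 µM libraries lay below all vehicle libraries, which gives the smallest p that an exact two-sided permutation test of 3 against 3 allows (p = 0.1), and 25 µM against vehicle gave p = 0.8. SLC7A11 counts per SLC3A2 count were 0.0224 ± 0.00580 in vehicle, 0.0579 ± 0.0187 at 25 µM and 0.0545 ± 0.0101 at 50 µM. Neither dose overlapped vehicle (exact permutation p = 0.1 for each), and 50 against 25 µM gave p = 0.8.

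**Figure D2:**
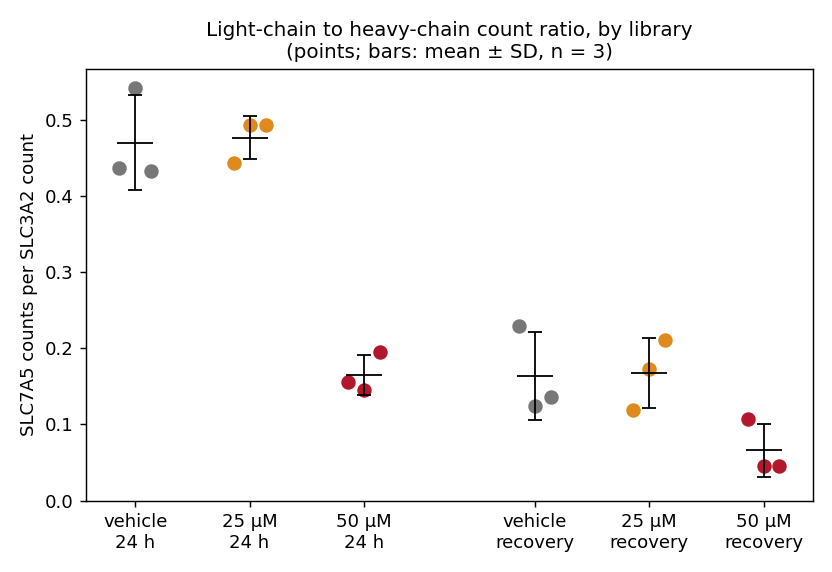
SLC7A5 counts per SLC3A2 count in every library (points) with mean and SD (bars, n = 3), on a linear axis from 0. After 24 h, vehicle and 25 µM PFOS lie between 0.432 and 0.541 and 50 µM PFOS between 0.145 and 0.195; after recovery all 3 groups lie between 0.0455 and 0.229.

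SLC6A9, the glycine transporter (chromosome 1: 43996483-44031462), was low in vehicle and rose at both doses. It had 9.41, 11.5 and 11.5 CPM in vehicle, 39.6, 65.8 and 41.5 CPM at 25 µM and 70.4, 83.3 and 80.0 CPM at 50 µM. No libraries of neighbouring doses overlapped. The log2 change was 2.80 ± 0.26 at 50 µM (adjusted p = 1.19e-07) and 2.17 ± 0.26 at 25 µM (adjusted p = 6.19e-05). SLC7A1, the arginine and lysine transporter (chromosome 13: 29509414-29595688), had 45.9, 62.0 and 71.3 CPM in vehicle, 105, 90.6 and 94.3 CPM at 25 µM and 88.0, 83.3 and 89.7 CPM at 50 µM. All exposed libraries lay above vehicle, but the log2 changes of 0.51 ± 0.20 at 50 µM (adjusted p = 0.0749) and 0.65 ± 0.19 at 25 µM (adjusted p = 0.130) were not called.

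The 2 exchangers of small neutral amino acids did not pass the test at either dose. SLC1A5, which carries glutamine (chromosome 19: 46774883-46788594), had 228, 243 and 281 CPM in vehicle, 416, 458 and 423 CPM at 25 µM and 353, 313 and 426 CPM at 50 µM. All exposed libraries again lay above vehicle, with log2 changes of 0.54 ± 0.32 at 50 µM (adjusted p = 0.274) and 0.78 ± 0.32 at 25 µM (adjusted p = 0.433). With only the compared libraries fitted, both changes were called (adjusted p = 0.00228 at 50 µM and 6.39e-06 at 25 µM), and SLC7A1 was too (adjusted p = 0.0234 and 0.00845). SLC1A4 (chromosome 2: 64988479-65023865) had 23.5, 13.7 and 12.4 CPM in vehicle, 12.96, 21.0 and 23.9 CPM at 25 µM and 32.1, 31.4 and 19.9 CPM at 50 µM. Its groups overlapped, and the log2 change at 50 µM was 0.83 ± 0.33 (adjusted p = 0.0825). With only the compared libraries fitted, SLC1A4 was also called at 50 µM but not at 25 µM.

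Of the sodium-coupled SLC38 members, SLC38A1 rose, while SLC38A2 and SLC38A10 were not called. SLC38A1 (chromosome 12: 46183063-46269043) had 215, 195 and 170 CPM in vehicle, 364, 438 and 408 CPM at 25 µM and 745, 700 and 684 CPM at 50 µM. The doses did not overlap, and the log2 change was 1.88 ± 0.13 at 50 µM (adjusted p = 2.63e-09) and 1.07 ± 0.13 at 25 µM (adjusted p = 6.37e-05). Its neighbour SLC38A2 (chromosome 12: 46358188-46372773) had 4094, 4104 and 4164 CPM in vehicle, 4636, 4894 and 5115 CPM at 25 µM and 4589, 4375 and 4531 CPM at 50 µM. The exposed libraries lay above vehicle by a small margin, with log2 changes of 0.13 ± 0.13 at 50 µM (95% interval -0.15 to 0.40) and 0.24 ± 0.13 at 25 µM (-0.03 to 0.52). SLC38A10 (chromosome 17: 81244811-81295307) had 69.4, 75.3 and 86.6 CPM in vehicle, 83.5, 80.7 and 69.2 CPM at 25 µM and 53.8, 50.8 and 67.3 CPM at 50 µM. It was the 1 gene of the 10 whose 50 µM libraries all lay below vehicle, with a log2 change of -0.42 ± 0.30 (adjusted p = 0.365) that was not called.

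Between the doses at 24 h, SLC3A2 and SLC38A1 were higher at 50 than at 25 µM, and the other 8 of the 10 were not called. A fit of the 2 compared groups alone called 5, with SLC7A11 and SLC6A9 higher and SLC7A5 lower in addition. That fit called 941 of all genes tested higher and 984 lower, against 376 and 362 with all libraries. With all libraries the log2 differences of SLC3A2 and SLC38A1 were 0.85 ± 0.13 (adjusted p = 0.000350) and 0.81 ± 0.13 (adjusted p = 0.000341), where 3.82% of all genes were called higher and 3.68% lower (7.49% in all). SLC7A11 and SLC6A9 also had higher values at 50 µM in every library, at 0.78 ± 0.27 (adjusted p = 0.0840) and 0.64 ± 0.23 (adjusted p = 0.0922). SLC7A5, SLC7A1, SLC38A2 and SLC38A10 had lower values at 50 than at 25 µM in every library, with log2 differences of -0.66, -0.15, -0.12 and -0.42, none of them called. Libraries of the doses did not overlap for 8 of the 10 genes (4 higher and 4 lower), where 17.2% of all genes were higher and 18.1% lower without overlap (35.2% in all).

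**Figure D3:**
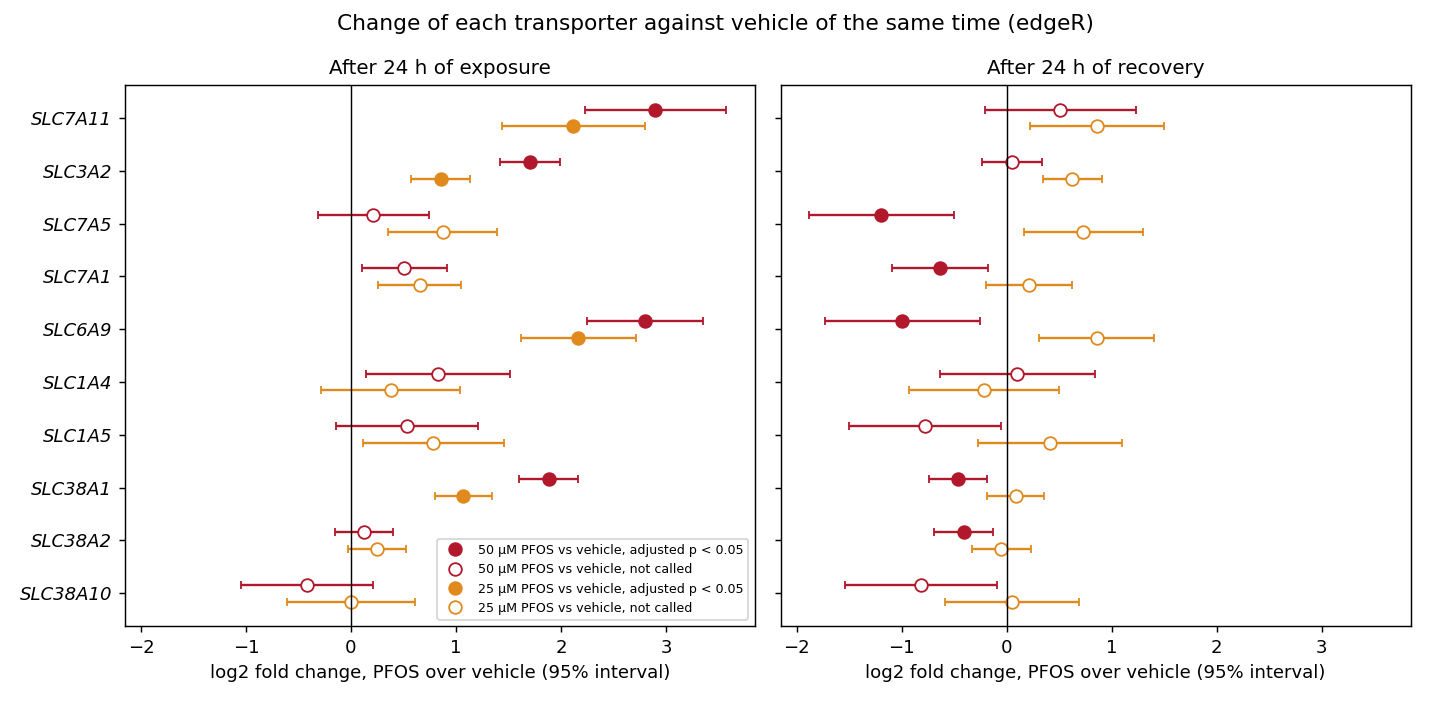
Log2 fold change of each transporter against vehicle of the same time (points) with 95% intervals (bars) from edgeR, for 50 µM and 25 µM PFOS, after 24 h (left) and after recovery (right). Filled points are called. The 4 called genes at 24 h lie between 0.85 and 2.90, and the 5 called genes at 50 µM after recovery lie between -1.19 and -0.41.

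After recovery from 50 µM PFOS, 5 of the 10 transcripts were lower than in recovered vehicle cells and 0 were higher (edgeR; 7 of the 10 had an unadjusted p under 0.05, and DESeq2 called 5). They were SLC7A5, SLC6A9, SLC7A1, SLC38A1 and SLC38A2, with 2.29-, 1.99-, 1.55-, 1.38- and 1.33-fold lower levels. Among all genes, 10.7% were called lower and 17.7% higher (28.4% in all). The median log2 change of the 10 genes was -0.55, beside -0.05 over all genes. Libraries did not overlap for SLC7A1 and SLC38A1 only (2 of 10, where 14.1% of all genes were lower and 17.2% higher without overlap, 31.3% in all). Without library 2 of the 50 µM group, SLC38A1 alone was called (log2 change -0.40, edgeR adjusted p = 0.0429), where 5.07% of all genes were called lower. In an edgeR fit of the 2 compared groups alone 0 of the 10 were called, with 2 at an unadjusted p under 0.05. That fit called 63 of all genes tested lower and 755 higher. Leaving out vehicle library 1, 2 or 3 left 2, 3 or 2 calls. Leaving out 50 µM library 3 left 2, and leaving out 50 µM library 1 gave 7. The number of calls thus changed with the library left out. Over all genes it ranged from 1613 to 4065 with 1 library left out, and the cause was not tested. In this group the summed level of the 7 mesenchymal markers was 3768 to 12490 CPM, against 12897 to 17649 CPM in recovered vehicle cells. FN1 made up most of this sum, with means of 6252 and 12237 CPM, while VIM went the other way, with 631 and 537 CPM. Without library 2, FN1 and COL1A1 were called lower (log2 change -0.61 and -0.97), and COL1A2, THY1, PDGFRB and VIM were not called. The part of this sum in the results was not tested.

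SLC7A5 had 38.4, 11.8 and 16.7 CPM after recovery from 50 µM PFOS and 72.0, 38.3 and 44.9 CPM in recovered vehicle cells. Its highest 50 µM library just overlapped the vehicle range, and the log2 change was -1.19 ± 0.33 (edgeR adjusted p = 0.0100; -0.81 and adjusted p = 0.0981 without library 2). SLC6A9 had 13.95, 5.47 and 6.95 CPM after 50 µM and 12.3, 20.2 and 17.4 CPM in vehicle, again with overlap at 1 library, and changed by -0.99 ± 0.35 (adjusted p = 0.0403; -0.70 and adjusted p = 0.252 without library 2). Both genes rest on few counts in the 50 µM libraries, with 33, 13 and 12 for SLC7A5 and 12, 6 and 5 for SLC6A9. SLC7A1 had 46.5, 31.9 and 30.6 CPM after 50 µM and 58.2, 56.6 and 54.5 CPM in vehicle. All 3 lay below vehicle, with a change of -0.63 ± 0.22 (adjusted p = 0.0359; -0.53 and adjusted p = 0.144 without library 2).

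SLC38A1 had 222, 193 and 226 CPM after recovery from 50 µM PFOS and 259, 308 and 314 CPM in vehicle. The groups did not overlap, and the log2 change was -0.46 ± 0.13 (adjusted p = 0.0125). SLC38A2 had 3495, 2649 and 2958 CPM after 50 µM and 3912, 3434 and 4752 CPM in vehicle, with 1 library overlapping and a change of -0.41 ± 0.13 (adjusted p = 0.0253; -0.32 and adjusted p = 0.0747 without library 2). SLC1A5 had 199, 33.7 and 122 CPM after 50 µM and 221, 160 and 221 CPM in vehicle, and SLC38A10 had 52.3, 10.0 and 29.2 CPM against 68.2, 36.4 and 55.4 CPM. For both, library 2 was far below the others, and neither change was called (-0.78 and -0.81, adjusted p = 0.0984 and 0.0858; -0.30 and -0.31 without library 2).

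The cystine exchanger subunits were not called after recovery from 50 µM. SLC3A2 had 360, 260 and 367 CPM after 50 µM and 314, 307 and 330 CPM in vehicle, a log2 change of 0.05 ± 0.14 (95% interval -0.24 to 0.33). SLC7A11 had 10.5, 26.4 and 11.1 CPM after 50 µM and 6.89, 12.6 and 14.2 CPM in vehicle. Its change of 0.51 ± 0.35 (adjusted p = 0.282) turned to -0.13 without library 2, the 1 high library. SLC1A4 had 19.8, 16.4 and 16.7 CPM after 50 µM and 16.9, 21.5 and 9.61 CPM in vehicle, with a change of 0.10 ± 0.36 (adjusted p = 0.857). The ratio of SLC7A5 to SLC3A2 counts was 0.0658 ± 0.0352 after 50 µM and 0.163 ± 0.0575 in recovered vehicle cells, without overlap (exact permutation p = 0.1, the smallest that 3 against 3 allows).

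After recovery from 25 µM PFOS, 0 of the 10 transcripts were called, and 0% of all genes (edgeR, lowest adjusted p = 0.491). At an unadjusted p under 0.05 there were 688 genes, 4 of the 10 among them. DESeq2 called 1 gene of the whole table, SLC3A2 (adjusted p = 0.0213). SLC3A2 had 491, 534 and 440 CPM after 25 µM and 314, 307 and 330 CPM in vehicle, a log2 change of 0.63 ± 0.14 in edgeR (95% interval 0.34 to 0.91). SLC7A11 had 23.5, 22.1 and 18.4 CPM after 25 µM and 6.89, 12.6 and 14.2 CPM in vehicle, and SLC6A9 had 33.5, 34.6 and 23.8 CPM against 12.3, 20.2 and 17.4 CPM. These 3 genes did not overlap with vehicle, where 6.89% of all genes were higher and 6.92% lower without overlap (13.8% in all). The log2 changes of SLC7A11 and SLC6A9 were 0.86 ± 0.31 and 0.86 ± 0.26 (adjusted p = 0.559 and 0.530).

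The rest of the 10 overlapped with vehicle after recovery from 25 µM. SLC7A5 had 58.7, 92.2 and 92.9 CPM after 25 µM and 72.0, 38.3 and 44.9 CPM in vehicle, at 0.73 ± 0.27 on the log2 scale. SLC38A1 had 317, 301 and 321 CPM after 25 µM and 259, 308 and 314 CPM in vehicle, at 0.08 ± 0.13. SLC38A2 had 3658, 3707 and 4322 CPM after 25 µM and 3912, 3434 and 4752 CPM in vehicle, at -0.05 ± 0.13. Each of these 3 genes had at least 1 library inside the vehicle range. SLC7A1 had 43.6, 79.3 and 63.7 CPM after 25 µM and 58.2, 56.6 and 54.5 CPM in vehicle, at 0.21 ± 0.20. SLC1A5 had 216, 334 and 237 CPM after 25 µM and 221, 160 and 221 CPM in vehicle, at 0.41 ± 0.33. SLC1A4 and SLC38A10 had -0.22 ± 0.34 and 0.05 ± 0.31 on the same scale, from 10.7 to 18.4 CPM and 43.6 to 63.9 CPM after 25 µM, and no change among these was called. The ratio of SLC7A5 to SLC3A2 counts was 0.168 ± 0.0461 after 25 µM and 0.163 ± 0.0575 in vehicle (exact permutation p = 1).

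Set against the 25 µM recovery group, 6 of the 10 transcripts were lower after recovery from 50 µM: SLC7A5, SLC6A9, SLC1A5, SLC7A1, SLC3A2 and SLC38A1, by 3.80-, 3.60-, 2.28-, 1.80-, 1.49- and 1.46-fold. Among all genes, 7.22% were called lower and 14.6% higher (21.8% in all). Without library 2 of the 50 µM group 6 were again called lower (2.6% of all genes). In an edgeR fit of the 2 groups alone 0 of the 10 were called, with 5 at an unadjusted p under 0.05. That fit called 0 of all genes tested, so its count says nothing particular about the transporters. DESeq2 on all libraries called 7 of the 10.

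The effect of 50 µM PFOS differed between the times for 6 of the 10 transcripts, all in the direction of a smaller or more negative change after recovery (7.4% of all genes were called in that direction). For SLC6A9 the log2 change was 2.80 after 24 h and -0.99 after recovery, a difference of -3.79 ± 0.43 (adjusted p = 8.67e-06). Few counts underlie the recovery value of SLC6A9, with 12, 6 and 5 in the 50 µM libraries. For SLC38A1 the changes were 1.88 and -0.46, a difference of -2.35 ± 0.19 (adjusted p = 1.43e-07), and for SLC3A2 they were 1.70 and 0.05, a difference of -1.65 ± 0.19 (adjusted p = 1.11e-05). SLC7A11, SLC7A5 and SLC7A1 were the other 3 called. Without library 2 of the 50 µM recovery group, 6 were called again (5.67% of all genes), with SLC1A5 in and SLC7A5 out. At 25 µM 0 of the 10 were called for such a difference in edgeR, 3 had an unadjusted p under 0.05 and DESeq2 called 1, with 0.0203% of all genes called in edgeR, and SLC38A1 came closest at -0.98 ± 0.18 (adjusted p = 0.0646).

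Vehicle cells themselves differed between the times in 2 of the 10 transcripts. SLC7A5 fell to 72.0, 38.3 and 44.9 CPM after recovery, against 108, 134 and 120 CPM after 24 h, a log2 change of -1.27 ± 0.26 (adjusted p = 0.0217; 0.65% of all genes called lower). SLC38A1 rose to 259, 308 and 314 CPM, against 215, 195 and 170 CPM, a change of 0.61 ± 0.13 (adjusted p = 0.0261; 0.335% called higher). Vehicle libraries of the times did not overlap for 6 of the 10 genes, 3 higher after recovery (SLC3A2, SLC6A9 and SLC38A1) and 3 lower (SLC7A5, SLC1A5 and SLC38A10), where 8.76% of all genes were higher and 9.54% lower without overlap. Both calls were lost without library 2 or 3 of either time, with adjusted p of 0.0731 to 0.228 for SLC7A5 and 0.0749 to 0.177 for SLC38A1. The SLC7A5 to SLC3A2 ratio was 0.163 ± 0.0575 in recovered vehicle cells and 0.470 ± 0.0620 in 24 h vehicle cells, without overlap (exact permutation p = 0.1). Time in culture and medium change cannot be told apart here.

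Ordered by mean over the 6 groups, SLC3A2, SLC38A1, SLC6A9, SLC7A11 and SLC1A4 were highest at 50 µM after 24 h, and SLC7A5, SLC7A1, SLC1A5, SLC38A2 and SLC38A10 at 25 µM after 24 h. The top group did not overlap the next for SLC3A2, SLC38A1, SLC6A9, SLC7A11, SLC7A5, SLC7A1 and SLC38A2, and it did for SLC1A4, SLC1A5 and SLC38A10. SLC1A4 had overlapping libraries at every step of its order, with group means of 15.8 to 27.8 CPM. The lowest group was 50 µM after recovery for SLC7A5, SLC7A1, SLC6A9, SLC1A5, SLC38A2 and SLC38A10, and 24 h vehicle for SLC7A11, SLC3A2 and SLC38A1. For 6 of the 10 genes the coefficient of variation within a group was highest at 50 µM after recovery, where it reached 69.9% for SLC1A5 and 69.4% for SLC38A10. SLC7A1, SLC1A4, SLC38A1 and SLC38A2 varied more in another group, and SLC1A4 had its lowest value (10.6%) there.

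Changes also followed gene length over the whole table, most at 50 µM after recovery, where Spearman's rho between gene span and log2 change was -0.31 over 9781 genes. This is across genes, which are not independent. The 500 genes nearest in span to each transporter had median log2 changes between -0.21 and 0.10 in that comparison and between -0.12 and 0.09 at 50 µM after 24 h. The part of this trend in the results was not tested.

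Other transporters of amino acids were taken from 3 lists. Of 29 further plasma membrane transporters 8 were tested, and at 50 µM after 24 h 2 rose and 2 fell (median log2 change 0.41), where 18.8% of all genes were called in either direction. SLC43A1, a leucine-type facilitator, had 18.1 CPM at 50 µM and 6.0 CPM in vehicle (log2 change 1.52 ± 0.36, adjusted p = 0.0049), and SLC38A3, a glutamine transporter, changed by 0.95 ± 0.24. SLC43A2, a second large neutral facilitator, had 4.88 CPM at 50 µM and 15.7 CPM in vehicle (-1.80 ± 0.38, adjusted p = 0.00184), and the taurine transporter SLC6A6 had 52.7 CPM at 50 µM and 106.8 CPM in vehicle (-0.99 ± 0.19, adjusted p = 0.000754). At 25 µM 0 of the 8 were called, where 1.22% of all genes were (edgeR, 3 of the 8 at an unadjusted p under 0.05, and DESeq2 called 0). After recovery from 50 µM 3 of the 8 fell, where 10.7% of all genes did: SLC43A2 by 1.98, SLC6A6 by 1.33 and SLC7A6, a further light chain of SLC3A2, by 0.82 on the log2 scale. SLC43A2 rested on very few counts there, with 0.911 to 3.49 CPM after recovery from 50 µM. Only SLC6A6 was called without library 2 (edgeR adjusted p = 0.000339).

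Of 6 tested lysosomal transporters 3 rose at 50 µM after 24 h (median 0.62), where 9.17% of all genes rose: SLC15A4, a histidine and peptide transporter, by 1.03 ± 0.29, the arginine-sensing SLC38A9 by 0.85 ± 0.23 and the cystine exporter CTNS by 0.75 ± 0.25 on the log2 scale (adjusted p of 0.0104 to 0.0375). Of 10 tested mitochondrial carriers 1 rose and 2 fell (median -0.19), near the shares of all genes (9.17% and 9.63%). The glycine carrier SLC25A38 changed by 0.65 ± 0.16, the sideroflexin SFXN3 by -0.78 ± 0.21 and the aspartate/glutamate carrier SLC25A13 by -0.64 ± 0.19. Neither list had a call in edgeR or DESeq2 at 25 µM after 24 h (1 lysosomal and 0 mitochondrial genes at an unadjusted p under 0.05) or after recovery from 50 µM (2 and 3 genes). Among all genes, edgeR called 1.22% at 25 µM after 24 h and 28.4% after recovery from 50 µM. Without library 2 of the 50 µM recovery group, SLC25A13 was called there (-0.69, adjusted p = 0.0262).

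Of 15 tested genes that sense amino acids or answer their lack, 7 rose and 0 fell at 50 µM after 24 h (median 0.80), where 9.17% of all genes rose and 9.63% fell. At 25 µM 5 rose and 0 fell (median 0.36), where 0.772% of all genes rose and 0.447% fell, and the other 10 were not called. TRIB3, a pseudokinase target of ATF4, had 849 CPM at 50 µM and 54.7 CPM in vehicle (log2 change 3.92 ± 0.26, adjusted p = 1.93e-09). DDIT3 (CHOP) rose by 2.49 ± 0.26, the leucine sensor SESN2 by 2.14 ± 0.28, ATF4 by 1.53 ± 0.18, the GATOR1 subunit NPRL2 by 1.16 ± 0.22 and the mTORC1 inhibitor DDIT4 by 1.12 ± 0.21. At 25 µM TRIB3 rose by 2.60 ± 0.25, SESN2 by 1.68 ± 0.28, DDIT4 by 1.32 ± 0.20 and ATF4 by 0.84 ± 0.18. After recovery from 50 µM 3 were higher and 2 lower, 5 of 15, where 28.4% of all genes were called. DDIT3 was still higher by 1.86 ± 0.24 and ATF4 by 0.57 ± 0.18, while TRIB3 was at 0.05 and SESN2 at -0.21. The others called were the Ragulator subunit LAMTOR1 (1.23), the amino acid-sensing kinase GCN2 gene EIF2AK4 (-0.68) and CEBPG, a partner of ATF4 (-0.55), named after their values were seen. Without library 2, DDIT3, LAMTOR1 and CEBPG were called.

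Of 10 tested genes of glutathione supply and use, 1 rose and 2 fell at 50 µM after 24 h, with a median of -0.02. These counts lie near the shares of all genes (9.17% rose and 9.63% fell), and DESeq2 called 2 of the 10 in place of 3. CHAC1, which degrades glutathione, had 154 CPM at 50 µM and 24.2 CPM in vehicle (2.76 ± 0.32, adjusted p = 3.60e-06), and at 25 µM it alone was called (1.85 ± 0.32). CHAC2, its paralog, fell by 1.32 and GSR, glutathione reductase, by 0.85 on the log2 scale (adjusted p = 0.0168 and 0.0480). GCLC, the catalytic subunit of the rate-limiting step of glutathione synthesis, changed by -0.06, and NFE2L2, which encodes NRF2, by -0.03, neither of them called and both named after their values were seen. After recovery from 50 µM, GPX4 (1.74) and GSR (0.92) were higher and CBS (-0.82) lower. These 3 of 10 lie near the share of all genes, of which 17.7% were called higher and 10.7% lower (28.4% in all). Only GPX4 was called without library 2, where 16.1% of all genes were called. The lists were chosen with earlier results of these data known, so their counts are descriptions.

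**Figure D4:**
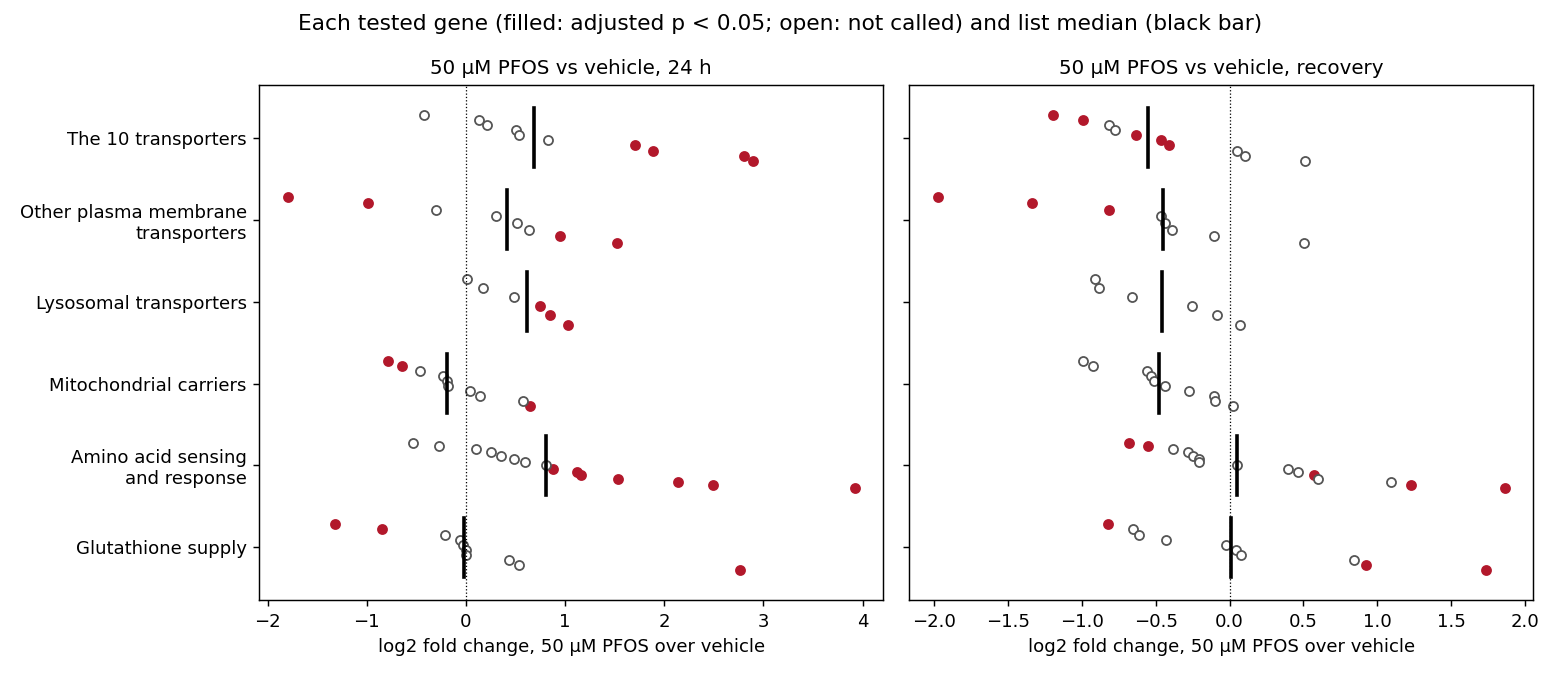
Log2 fold change of every tested gene (points; filled where called) and list median (black bar) for the 10 transporters and 5 lists of related genes, at 50 µM PFOS against vehicle after 24 h (left) and after recovery (right); the panels have their own linear axes. At 24 h the medians run from -0.19 (mitochondrial carriers) to 0.80 (amino acid sensing), and the 10 transporters have 4 called genes above 0.

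Genes of like pattern were taken for the transporter with the largest increase and the one with the largest decrease at 50 µM after 24 h, by the root mean square difference of centred log2 CPM over the 18 libraries among 9654 genes. These are descriptions over libraries that share treatment groups. For SLC7A11, whose own log2 levels had an SD of 0.98, the 5 nearest were ASNS (0.356), LMO4 (0.484), PSAT1 (0.494), TMEM154 (0.517) and DERL3 (0.518). ASNS makes asparagine and PSAT1 acts in serine synthesis. ASNS averaged 51.0 CPM in vehicle, 232 CPM at 25 µM and 338 CPM at 50 µM after 24 h. For SLC38A10 (SD 0.70) they were SMTN (0.0955), PTBP1 (0.131), MAN2B1 (0.179), AFAP1L1 (0.183) and TRIM11 (0.183). SMTN averaged 248 CPM in vehicle, 285 CPM at 25 µM and 191 CPM at 50 µM after 24 h.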

How the data were processed

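The authors deposited 1 table of whole-number counts for each gene symbol, unnormalized, with a column for each RNA library, per the file headers. Per the labels' protocols, TRIzol RNA went through poly(A) selection and Smart-seq2, which marks neither molecules nor strand, and both ends were read. Counts therefore include PCR copies, and reads of overlapping or antisense genes cannot be told apart. The submitters' processing notes name Trimmomatic, STAR, DESeq2, MACS2, GRCh38 and hg38; no counting tool is named in the labels. Symbols matched RefSeq genes on GRCh38.p14 for 95.27% of rows, which gave positions, gene spans with introns, and promoter windows.

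The test was edgeR (4.0.16, under R 4.3.3). A filterByExpr minimum count of 10 left 9847 genes holding 99.2% of counts, libraries were TMM-scaled, and a robust quasi-likelihood model with a mean for each of 6 groups was fitted to all 18 libraries. Tests were two-sided, with Benjamini-Hochberg adjustment across every tested gene and a threshold of 0.05. The code was tested on simulated data. The median biological coefficient of variation was 16.0%.

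Alternatives were DESeq2 1.42.0, its size factors, no filter, the compared groups alone, a replicate block, thinning to the smallest library and leaving out each library; list counts under them were added after seeing the data. The 10 transporters and all lists were chosen with earlier results of these data known. All 10 are named, with 5 genes of like pattern each for the transporters with the largest increase and decrease. The rule for a list was at most 6 called genes by size of the 50 µM change at 24 h. LAMTOR1, EIF2AK4, CEBPG, GCLC and NFE2L2 were named beyond that rule, after their values were seen.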

Additional observations from a re-analysis of the deposited data

Results flagged for a closer look

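For 6 of the 10 transporters the effect of 50 µM PFOS against vehicle differed between recovery and 24 h of exposure by a test of that difference in edgeR. The log2 difference, recovery effect minus 24 h effect, was -3.79 for SLC6A9 (adjusted p = 8.67e-06), -2.39 for SLC7A11 (adjusted p = 0.00249) and -2.35 for SLC38A1 (adjusted p = 1.43e-07). It was -1.65 for SLC3A2 (adjusted p = 1.11e-05), -1.40 for SLC7A5 (adjusted p = 0.0238) and -1.14 for SLC7A1 (adjusted p = 0.0114). Among all genes 7.4% were called in this direction. Counts in the 50 µM recovery libraries were few for SLC6A9 (12, 6 and 5), SLC7A11 (9, 29 and 8) and SLC7A5 (33, 13 and 12). Without library 2 of the 50 µM recovery group the difference was -3.49 for SLC6A9, -3.03 for SLC7A11, -2.28 for SLC38A1, -1.50 for SLC3A2 and -1.03 for SLC7A1, all called, and -1.02 for SLC7A5 (adjusted p = 0.0808).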

How the results depend on the processing

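Over the alternatives, 1076 of 1200 values of the 10 transporters kept direction and call, 55 lost and 38 gained a call and 31 turned sign, each of them a value that was not called with all libraries. Fitting only the compared groups gave 7 calls in place of 4 for 50 µM and 7 in place of 4 for 25 µM PFOS against vehicle at 24 h, 5 in place of 2 for 50 against 25 µM at 24 h, 0 in place of 5 for 50 µM against vehicle and 0 in place of 6 for 50 against 25 µM after recovery, and 1 in place of 0 for the difference between times at 25 µM. DESeq2 gave 1 in place of 0 for 25 µM after recovery and for the difference between times at 25 µM. Thinning gave 2 in place of 5 for 50 µM after recovery and 0 in place of 2 for vehicle between the times, where no filter gave 1. Leaving out 1 library gave 1 to 7 calls for 50 µM after recovery, 4 to 8 for 50 against 25 µM after recovery, 5 to 8 for the difference between times at 50 µM, 2 to 3 for 50 against 25 µM at 24 h, 4 to 5 and 4 to 4 for 50 and 25 µM at 24 h and 0 to 2 for vehicle between the times. The causes were not tested.

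Replicate numbers did not pair libraries: 7 of 45 same-number pairs correlated above 0.1 (range -0.34 to 0.39) and 2 of 18 libraries correlated best with their own number. With the replicate block, vehicle between the times had 1 call in place of 2, and no other count of transporters moved by over 1.5 times.

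Signs turned with DESeq2 size factors for SLC38A10 at 25 µM and 24 h (-0.00053), and with thinning for SLC38A10 at 25 µM after recovery (-0.0031), SLC7A5 and SLC38A10 in the difference between times at 25 µM (0.15 and -0.084) and SLC38A2 in vehicle between the times (0.035). With 1 library left out, SLC38A10 ranged from -0.048 to 0.097 at 25 µM and 24 h, -0.19 to 0.27 at 25 µM after recovery, and -0.19 to 0.26 and -1.09 to 0.11 in the differences between times at 25 and 50 µM. SLC1A4 ranged from -0.49 to 0.17 at 25 µM, -0.17 to 0.49 at 50 µM and -0.069 to 0.48 at 50 against 25 µM after recovery, and -0.25 to 0.38 in vehicle between the times. SLC38A2 ranged from -0.13 to 0.084 at 25 µM after recovery and -0.17 to 0.070 in vehicle between the times, and SLC7A1 from -0.045 to 0.37 and -0.23 to 0.028 in the same comparisons. SLC3A2 ranged from -0.038 to 0.20 and SLC7A11 from -0.13 to 0.75 at 50 µM after recovery, and SLC7A5 from -0.33 to 0.15 in the difference between times at 25 µM.

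Counts over all genes also moved. At 24 h, 1851 genes were called at 50 µM, 120 at 25 µM and 738 between doses; the compared groups alone gave 2872, 480 and 1925 and thinning 1132, 59 and 440. After recovery from 50 µM 2793 were called (818 with the compared groups alone, 1613 to 4065 with 1 library left out). For 50 against 25 µM after recovery 2151 were called, and 0 with the compared groups alone.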
